A study of Mus musculus with 3 samples.

Results

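Intergenic accessible sites that lay close to a gene, but outside it and away from its promoter, were taken from a peak list of dopaminergic neurons (DNs) of the mouse midbrain. The centre of each site had to lie outside every protein-coding gene body of GENCODE M21 and 1 to 50 kb from the nearest start of a protein-coding transcript. Sites within 1 kb of a lincRNA or antisense start were left out when they were more than 5 kb from all coding starts. The rule selected 8149 of the 54570 autosomal peaks, or 14.9% (95% exact binomial interval 14.6 to 15.2), from a list of 55326 peaks in all. The other autosomal peaks were 17077 promoter peaks (within 1 kb of a coding start), 23029 gene body peaks away from starts, 5643 distal intergenic peaks more than 50 kb from any coding start, and 672 peaks at noncoding starts. The list came from single-nucleus ATAC-seq (snATAC-seq), in which a transposase cuts and tags open DNA in each nucleus. DNs replicate 1 was a male C57Bl/6Nl mouse of 7 weeks and DNs replicate 2 a male of the same strain of 9 weeks. Both were wild-type animals, and the midbrain ventral tegmental area (VTA) was dissected from each. DNs were not sorted as such but picked out as a cluster of nuclei after sequencing.

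The deposited list holds positions only, every peak is 500 bp wide, and no value in it belongs to a single library. There was therefore no score, no depth and no spread between animals behind any value. All intervals given for counts, shares and ratios are 95% intervals that cover counting error only, and the 19 autosomes are used as a description of how even a pattern was, not as replicates. The ES cell sample of the same series was not analysed here. The peaks were compared with markers, which is no independent check of the cell type label. Per the study's methods, the DN cluster was picked by its accessibility-based score for Th and checked with further markers. Those named (Lmx1b, Foxa1, Foxa2 and Slc6a3) and Th itself are also among the DN markers used here. Over all coding genes, 57.8% had a promoter peak and 23.3% were nearest to an intergenic site. Of 10 DN markers, 10 had a promoter peak and 5 were nearest to a site, with 21 sites in all. Promoter peaks were found at 1 of 5 oligodendrocyte markers, 0 of 4 astrocyte markers, 0 of 4 microglia markers, 1 of 4 markers of midbrain GABAergic neurons and 0 of 3 ES cell markers. The sites themselves did not follow the label: 3 of the 4 astrocyte, 2 of the 5 oligodendrocyte, 1 of the 4 microglia, 2 of the 4 GABAergic and 2 of the 3 ES cell markers were nearest to at least 1 site. Among these markers, the DN label thus showed in promoter peaks and not in the sites. The part of other cells in the results was not tested.

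Enhancers are stretches of DNA that bind transcription factors and raise transcription from a promoter that can lie far along the chromosome, and they are usually free of nucleosomes where they are in use. Sites bound by CTCF, the protein that stops cohesin-driven loop extrusion, are open in most cell types. An open intergenic site can be either of these or something else, and accessibility alone does not tell them apart. Midbrain DNs are specified by a set of transcription factors that includes the forkhead proteins Foxa1 and Foxa2, the homeodomain proteins Lmx1b, En1 and En2, and the nuclear receptor Nr4a2.

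The sequences below show what such sites look like. For each of 4 motifs, the site with a match that lay nearest to the start of a gene of dopamine handling or of a midbrain DN transcription factor is printed, as 160 bases of the mm10 plus strand read from the RefSeq GRCm38.p6 genome. Capitals mark the match on either strand. The motifs were the forkhead consensus (TGTTTAC or TATTTAC), the homeobox core TAATTA, the Nr4a response element NBRE (AAAGGTCA) and the CTCF consensus.
Foxa1, forkhead, chr12:57538412-57538571: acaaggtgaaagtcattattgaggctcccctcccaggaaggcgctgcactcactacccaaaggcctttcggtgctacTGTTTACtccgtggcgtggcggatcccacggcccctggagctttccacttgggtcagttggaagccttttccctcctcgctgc
Foxa1, homeobox, chr12:57548294-57548453: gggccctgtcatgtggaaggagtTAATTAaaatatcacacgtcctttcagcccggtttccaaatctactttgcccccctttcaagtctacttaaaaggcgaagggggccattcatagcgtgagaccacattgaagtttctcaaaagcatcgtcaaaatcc
Spr, NBRE, chr6:85153887-85154046: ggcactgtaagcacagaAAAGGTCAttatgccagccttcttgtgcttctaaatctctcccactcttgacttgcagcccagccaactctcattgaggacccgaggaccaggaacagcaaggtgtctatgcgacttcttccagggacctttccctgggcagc
Lmx1b, CTCF, chr2:33643207-33643366: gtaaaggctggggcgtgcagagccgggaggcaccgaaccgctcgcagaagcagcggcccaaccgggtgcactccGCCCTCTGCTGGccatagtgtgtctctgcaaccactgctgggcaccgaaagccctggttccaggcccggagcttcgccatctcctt
The forkhead match near Foxa1 lay 92 bp from the centre of its peak, which was 7.54 kb downstream of the gene's start. The homeobox match of the second Foxa1 site, 2.42 kb upstream, lay 224 bp from its centre, and the NBRE match upstream of Spr lay 229 bp from its centre. The CTCF match of the Lmx1b site, 2.74 kb upstream, was 37 bp from the centre. Among all 8149 sites, 14.1% held a forkhead match, 8.49% a homeobox match, 4.25% an NBRE match and 11.7% a CTCF match.

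The sites thinned out with distance from the start. The median distance was 13.7 kb, with quartiles of 5.21 and 26.4 kb. Per Mb of eligible sequence, meaning the 461.2 Mb that satisfied the same rule, there were 43.4 sites (40.3 to 46.7) at 1 to 2 kb, 25.1 (23.7 to 26.6) at 2 to 5 kb, 17.2 at 5 to 10 kb, 17.4 at 10 to 20 kb and 14.1 (13.6 to 14.6) at 20 to 50 kb. The density at 1 to 5 kb was 2.11 times that at 20 to 50 kb (1.99 to 2.24), and the ratio was above 1 on 19 of 19 autosomes, from 1.34 to 3.52. The decline was not continuous, as the intervals at 5 to 10 kb (16.3 to 18.2) and 10 to 20 kb (16.6 to 18.2) overlapped. At the limits of the rule, the centres just under 1 kb were 996 to 998 bp from the starts of Efna1, Mfap3l and Tert, and those just over it were 1000 bp from Zzz3 and Zc3h4 and 1006 bp from Git1. The farthest sites kept were 49966 to 49987 bp from Cpeb4, Chst14 and Bod1, and the nearest beyond were 50074 to 50108 bp from Mettl8, Cyld and 2010111I01Rik.

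Which side of the start was denser depended on the distance. At 1 to 2 kb, 701 sites were upstream and 27 downstream, and the density was 44.6 per Mb upstream and 25.4 per Mb downstream (ratio 1.76, 1.198 to 2.69). Only 1.06 Mb of downstream sequence that close to a start is intergenic, because the gene must end within that distance of its start. At 2 to 5 kb the values were 24.7 per Mb upstream (23.2 to 26.2) and 27.5 per Mb downstream (23.9 to 31.6), with overlapping intervals. From 5 to 20 kb the order was the opposite of that at 1 to 2 kb, with 15.4 per Mb upstream and 22.6 per Mb downstream (ratio 0.681, 0.634 to 0.733), and 18 of the 19 autosomes had the lower value upstream. From 20 to 50 kb the ratio was 0.710 (0.659 to 0.765), below 1 on all 19 autosomes. At these distances too, downstream sequence is eligible only where the gene ends before it. The 2 sides therefore differ in the genes they cover, and the part of gene length was not tested.

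**Figure D1:**
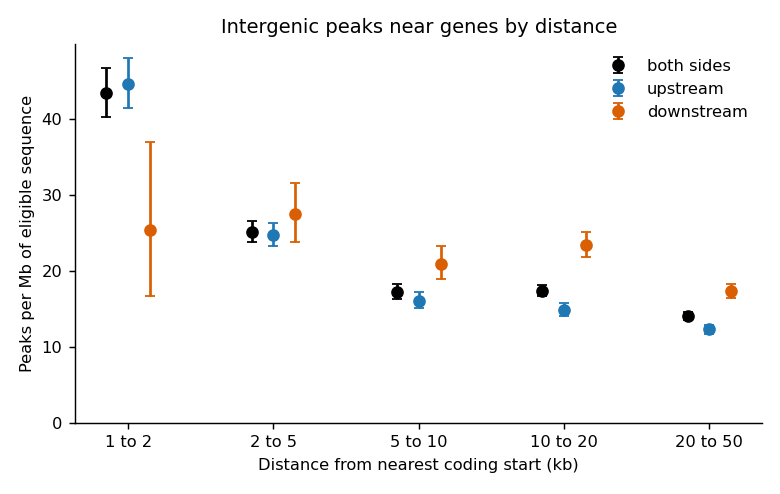
Density of the 8149 intergenic peaks near genes (y axis, peaks per Mb of eligible sequence) in bins of distance from the nearest coding start (x axis, kb); bars are 95% Poisson intervals. Upstream sites were densest at 1 to 2 kb (44.6 per Mb), the intervals of both sides overlapped at 2 to 5 kb, and downstream sites were the denser ones from 5 kb outwards.

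The genes on either side of an interval are transcribed away from each other (divergent), in the same direction (tandem) or towards each other (convergent). Convergent intervals held 23.8 sites per Mb, tandem intervals 16.9 and divergent intervals 16.4. The ratio of divergent to convergent was 0.688 (0.644 to 0.734), and it was above 1 on 1 of 19 autosomes. Convergent intervals lie downstream of both flanking genes, so the contrast of orientations is not independent of that between the sides of the start. This contrast was not uniform over interval size. In intervals under 20 kb there were 32.3 sites per Mb in divergent and 46.8 in convergent ones (ratio 0.691, 0.603 to 0.791). The ratio was 1.00 (0.871 to 1.15) in intervals of 20 to 50 kb and 0.986 (0.848 to 1.15) in those of 50 to 100 kb, so that no difference was detectable there. In intervals over 100 kb it was 0.772 (0.676 to 0.882). Tandem intervals had 34.2, 17.6, 13.1 and 12.1 sites per Mb in the 4 size classes, and from 50 to 100 kb their interval (12.2 to 14.0) lay below that of convergent ones (15.0 to 19.4). By share of intervals the order differed, since 36.8% of divergent and 23.9% of convergent intervals held at least 1 site.

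**Figure D2:**
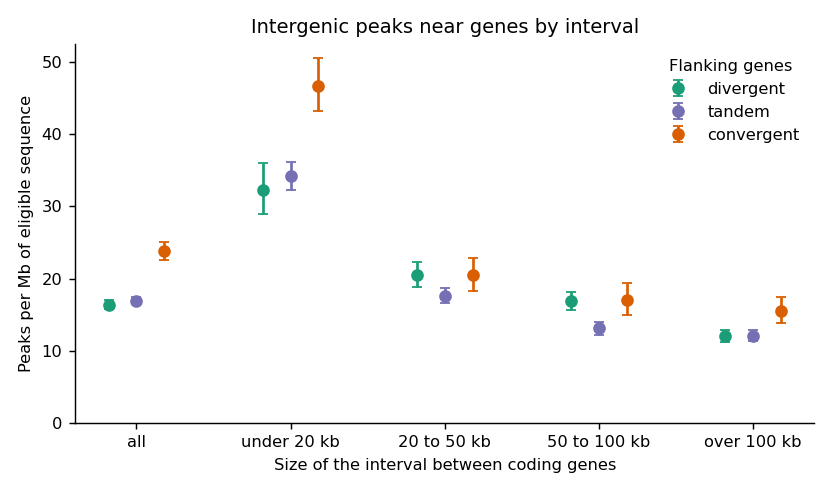
Density of intergenic peaks near genes (y axis, peaks per Mb of eligible sequence) by size of the interval between coding genes (x axis) and by direction of the flanking genes (colour); bars are 95% Poisson intervals. Convergent intervals were above divergent ones under 20 kb (46.8 against 32.3 per Mb) and over 100 kb (15.6 per Mb), and close to them from 20 to 100 kb.

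Part of the sites were gathered at a few loci. Of 16530 intervals between coding genes, 4617 held a site, 2793 held exactly 1, and 202 held 5 or more. Those 202 intervals contained 1342 sites, or 16.5%. The fullest interval was that between Dlk1 and Rtl1, convergent genes of an imprinted domain on chromosome 12, with 20 sites in 126 kb (240 per Mb of eligible sequence). Rtl1, a retrotransposon-derived gene expressed from the paternal allele, was the nearest coding gene of 26 sites, the highest count of any gene, and had no promoter peak itself. Of its 26 sites, 11 had their centre in the body of Meg3, a maternally expressed lincRNA gene between both coding genes, and 7 in that of Rian, another maternally expressed noncoding gene on the far side of Rtl1.

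The interval between Bhlhe23 and Ythdf1 on chromosome 2 held 16 sites, and 11 sites were nearest to Ythdf1, a reader of methylated adenosine in RNA, at 18.1 to 40.9 kb downstream of its start. The intervals between Cxxc5 and Psd2 and between Gm26897 and Cryba4 on chromosome 5 held 15 each, and those between Tex44 and Ptma and between Ahdc1 and Wasf2 held 14 each. Cryba4 encodes a crystallin of the eye lens, and its 14 sites all lay downstream, 10.2 to 41.4 kb from the start. Of these, 7 had their centre in the body of the lincRNA gene Miat. The remaining genes with the highest counts were Calcoco1, Dnmt3a and Gm11733 with 12 sites each, Psd2 with 11, and Dlk1, Prr5 and Uncx with 10 each. Dnmt3a, which encodes a DNA methyltransferase, had 9 of its sites upstream and also 19 peaks within its body. A nearest coding gene is a matter of position, and a site inside Meg3 or Miat is listed under Rtl1 or Cryba4 only for that reason.

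CTCF matches at these loci are shown in 120 bases each, chosen after their values were seen because 1 of the 26 Rtl1 sites and 1 of the 14 Cryba4 sites held such a match.
Rtl1, CTCF, chr12:109566740-109566859: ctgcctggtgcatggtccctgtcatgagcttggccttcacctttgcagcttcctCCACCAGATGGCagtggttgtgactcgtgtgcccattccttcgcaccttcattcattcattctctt
Cryba4, CTCF, chr5:112210242-112210361: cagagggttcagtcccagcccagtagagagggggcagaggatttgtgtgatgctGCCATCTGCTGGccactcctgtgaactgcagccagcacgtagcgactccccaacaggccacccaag
The match near Rtl1 lay 110 bp from the centre of its peak and that near Cryba4 29 bp.

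Genes of midbrain DN transcription factors and of dopamine handling were described one by one. Over all 20712 autosomal coding genes, 4835 (23.3%) were nearest to at least 1 site. Of 12 DN transcription factors, 6 were, with 26 sites in all (37.5 per Mb of eligible sequence, against 17.7 per Mb over all genes). En1, En2, Foxa1 and Lmx1b had 5 sites each, Nr4a2 had 4 and Foxa2 had 2. The 5 sites of En1 lay 2.60 to 15.7 kb upstream, without one downstream. Those of Lmx1b were also all upstream, at 1.36, 1.96, 2.74, 25.0 and 28.5 kb, whereas the 4 of Nr4a2 were all downstream, at 10.4 to 47.0 kb. Foxa1 had sites on both sides, the nearest 2.42 kb upstream. The interval of the list's share, 21.1 to 78.9%, included the 23.3% of all genes. Lmx1a, Otx2, Pitx3, Sox6 and Bnc2 were among those with 0. Pitx3 had 1.09 kb of eligible sequence and Sox6 had 0 kb, so that for these a count of 0 says little, but Otx2 had 89.6 kb.

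The enzymes and transporters of dopamine had fewer sites. Of 12 genes, 5 were nearest to a site, with 8 sites in all (21.1 per Mb), and the interval of the share, 15.2 to 72.3%, likewise included 23.3%. Aldh1a1, an aldehyde dehydrogenase of a DN subset, had 2 at 16.1 kb upstream and 42.6 kb downstream. Gch1 and Spr, enzymes of tetrahydrobiopterin synthesis, had 2 each, and Qdpr, which recycles that cofactor, had 1 at 45.3 kb. Drd2, the autoreceptor of DNs, had 1 site 29.4 kb upstream. Th, the rate-limiting enzyme, had 0 sites in 58.5 kb of eligible sequence, and Ddc, Slc18a2 (the vesicular transporter), Slc6a3 (the plasma membrane transporter), Pts and Dbh had 0 as well. Of these 12 genes, 11 had a promoter peak, against 57.8% of all genes. Peaks inside an annotated gene body cannot count as sites, so a count of 0 depends on how far that body reaches. Th had 9 peaks within its annotated body (chr7:142892752-142931128) and Ddc had 16.

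**Figure D3:**
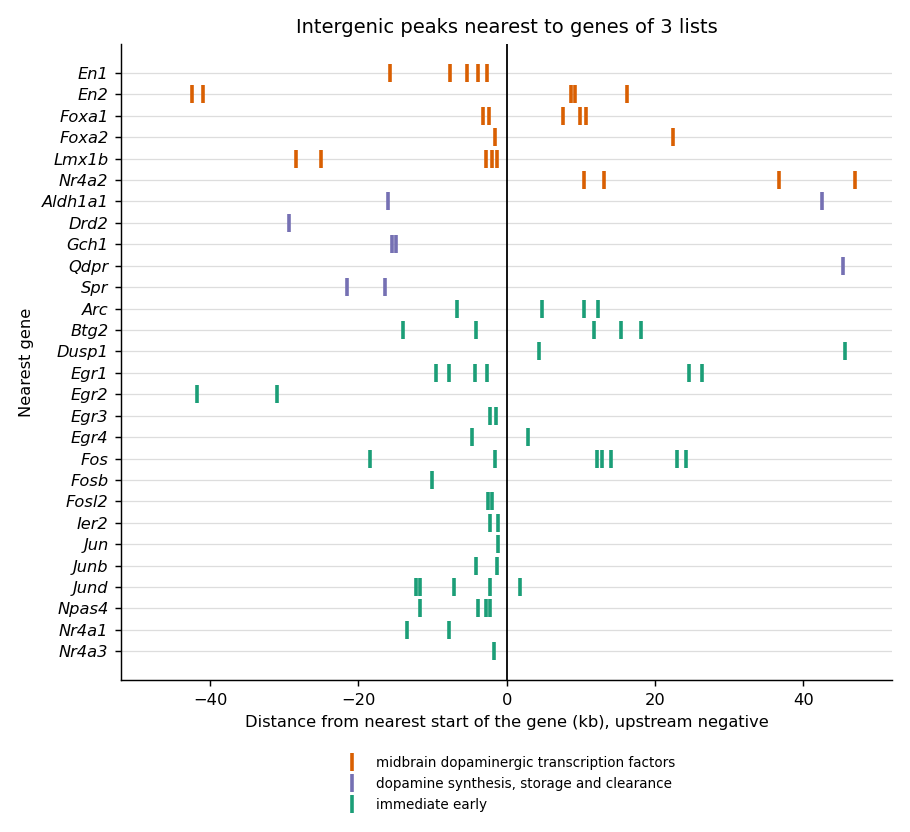
Position of every intergenic peak (tick) nearest to a gene of 3 lists, as distance from the nearest start of that gene (x axis, kb, upstream negative); genes without a site are not drawn. Lmx1b and En1 had all 5 of their sites upstream, Nr4a2 had all 4 downstream, and each of the 17 immediate early genes had at least 1.

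Immediate early genes are transcribed within minutes of neuronal activity, without the need for new protein synthesis. All 17 genes of the list were nearest to at least 1 site, with 50 sites in all, 77.7 per Mb of eligible sequence and a median of 2 per gene. Over all genes, 23.3% were nearest to a site, the density was 17.7 per Mb and the median was 0. All 17 also had a promoter peak, against 57.8% of all genes. Fos, a subunit of AP-1, had the most with 7. The others were Egr1 with 6, Btg2 and Jund with 5, Arc and Npas4 with 4, and 8 genes with 2, among them Junb, Nr4a1 and Egr2. Fosb, Jun and Nr4a3 had 1 each. Of the 50 sites, 33 were upstream and 23 lay within 5 kb of the start, with a median distance of 7.40 kb. The sites of Fos lay 18.5 and 1.65 kb upstream and from 12.2 to 24.1 kb downstream. Those of Npas4 were all upstream. The list was drawn up with earlier results of these data known, and the count describes the list without testing it.

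The Fos site 23.0 kb downstream held a CTCF match on the plus strand, 21 bp from the centre. It is printed as 120 bases, chosen after its values were seen, as an example of a centred CTCF match at an activity-regulated gene.
Fos, CTCF, chr12:85496864-85496983: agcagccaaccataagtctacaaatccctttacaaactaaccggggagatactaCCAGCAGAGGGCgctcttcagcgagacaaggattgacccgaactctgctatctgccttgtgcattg

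The other lists showed a wide range. Genes of synaptic vesicle release were nearest to a site in 12 of 19 cases (63.2%), among them Cplx2 with 7 sites and Snap25 with 4, which encode a regulator of vesicle fusion and a SNARE. Potassium channel genes stood at 42 of 92 (45.7%), with 7 sites at Kcna5, 5 at Kcnc4 and 4 at Kcna3, and axon guidance genes at 30 of 73 (41.1%), with 4 at Sema6b. By density the potassium channel and axon guidance lists were closer to all genes (17.7 per Mb), with 23.1 and 19.8 sites per Mb, and among genes with at least 5 kb of eligible sequence the shares were 54.9 and 42.6%. Cytosolic ribosomal protein genes (23 of 76, 30.3%) and genes of the mitochondrial respiratory chain (27 of 95, 28.4%) were nearer to the 23.3% of all genes by share, and 96.1 and 91.6% of them had a promoter peak. By density they were not, with 37.6 and 33.3 sites per Mb of eligible sequence, the former being close to the 37.5 per Mb of the DN transcription factors. Among genes with at least 5 kb of eligible sequence, 42.9% of the ribosomal and 43.6% of the respiratory chain genes were nearest to a site, against 30.7% of all. Among genes of other brain cells, astrocyte and microglia genes had 4 of 15, oligodendrocyte genes 4 of 13 and transcription factors of GABAergic and glutamatergic neurons 4 of 12. The intervals of these 3 lists also included 23.3%. Their densities were 16.1, 26.4 and 10.9 sites per Mb in the same order. The oligodendrocyte list was thus above the 21.1 per Mb of the dopamine handling genes. Keratin genes had 16 of 113 (14.2%), Hox genes 3 of 39 (7.69%) and chemosensory receptor genes 49 of 1456 (3.37%). Hox genes had little eligible sequence (median 3.315 kb), and of the 16 with at least 5 kb, 2 (12.5%) were nearest to a site. The chemosensory genes had ample eligible sequence (32.3 Mb) and 2.14 sites per Mb, yet Olfr1423 was nearest to 8 sites and Olfr90 to 5. The lists differ in eligible sequence per gene, with medians of 8.24 kb for ribosomal protein genes and 32.1 kb for immediate early genes against 14.4 kb for all, and no test of a list was made.

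Genes with an intergenic site also had a promoter peak more often. Among the 14489 genes with at least 5 kb of eligible sequence, 4448 (30.7%) were nearest to a site. A promoter peak was present at 68.4% of these and at 45.7% of the other 10041, a difference of 22.8 percentage points (95% Newcombe interval 21.1 to 24.4). The difference was positive on 19 of 19 autosomes, from 9.01 to 44.8 points. It was 24.1, 25.1 and 20.6 points in genes with little, intermediate and much eligible sequence (tertiles with bounds at 16.5 and 40.8 kb). With the number of sites, the share rose from 65.1% (63.3 to 66.9) at 1 site to 72.9% (70.1 to 75.6) at 2 and 83.8% (77.4 to 89.1) at 5 or more, while 3 or 4 sites gave 71.8%, within the interval of 2 sites. The 14489 genes include 1301 chemosensory receptor genes, of which 48 were nearest to a site. Only 5 of all 1456 chemosensory genes had a promoter peak, and the difference was not computed without them.

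**Figure D4:**
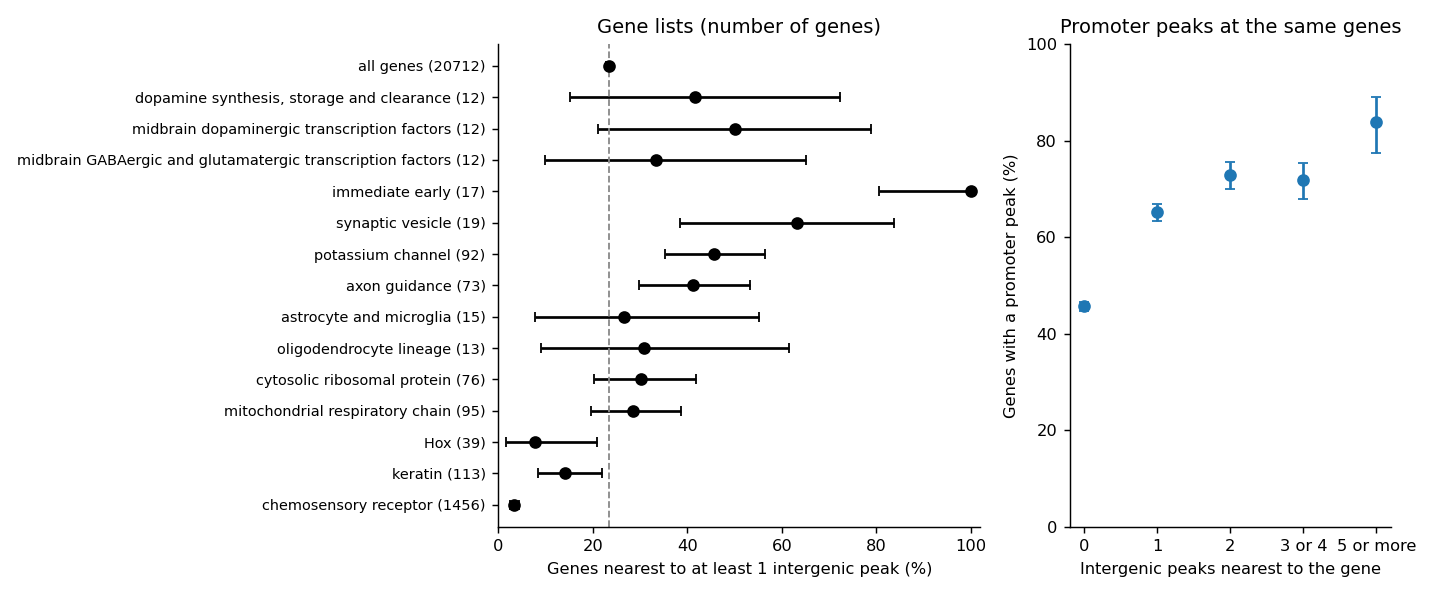
Left, share of genes nearest to at least 1 intergenic peak (x axis, %) in 14 gene lists, with all genes first and as a dashed line (23.3%); right, share of genes with a promoter peak (y axis, %) by number of intergenic peaks (x axis). Bars are 95% exact binomial intervals. The 17 immediate early genes were at 100%, chemosensory receptor genes at 3.37%, and promoter peaks were present at 45.7% of genes without a site.

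The sites lay close to one another. Another site of the same kind was found within 5 kb of 38.5% of them (37.5 to 39.6), whereas 23.5% of distal intergenic peaks had another distal peak that close (difference 15.1 points, 13.5 to 16.6, positive on 19 of 19 autosomes). With peaks of any class as neighbours the shares were 52.1 and 24.7%. The median gap to the nearest peak was 4.55 kb for the sites and 22.7 kb for distal peaks. Promoters and gene bodies are by definition nearer to the former, and a class that is denser has closer neighbours by position alone. Neither part was tested.

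In GC content and CpG composition, the sites stood between distal peaks and promoters. Mean GC content was 49.7% (SD 6.19 over 8149 sites, 47.2 to 51.0 over the autosomes), against 46.3% in distal peaks, 50.1% in gene body peaks and 61.6% in promoter peaks. Windows of 500 bp placed 2 kb to either side and free of peaks had 46.4%. The excess was largest at the middle of the peak, where GC reached 53.2% in the 50 bp right of the centre. It spanned the whole peak, since the outermost 50 bp stood at 48.1 and 48.4% and no 50 bp bin of the windows was above 46.5%. CpG-island-like composition, defined as GC above 50% with an observed to expected CpG ratio above 0.6, was found in 6.63% of the sites, 2.66% of distal peaks, 67.9% of promoter peaks and 0.907% of the windows. It fell with distance, from 14.6% at 1 to 2 kb to 5.01% at 20 to 50 kb. Repeats covered 14.5% of the bases of the sites and 29.1% of those of the windows, against 12.1% in distal peaks and 7.80% in promoter peaks.

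CTCF matches set these sites apart from the other classes. A match was present in 954 sites, or 11.7% (11.02 to 12.42), compared with 6.18% of distal intergenic peaks, 5.67% of gene body peaks, 1.36% of promoter peaks and 0.405% of the windows 2 kb away. The difference from distal peaks was 5.52 points (4.58 to 6.46) and was positive on 19 of 19 autosomes. It was also present within narrow ranges of GC, at 6.55 points (4.34 to 8.81) from 40 to 45% GC, 6.32 (4.56 to 8.03) from 45 to 50% and 5.73 (3.68 to 7.61) from 50 to 55%. From 55 to 60% the interval was -0.812 to 6.02 and included 0, as it did above 60%. The matches sat at the summit: 88.0% of 963 were within 50 bp of the centre, where an even spread would put 20%, and 24.1% of those in the windows were. This placement was shared by matches in distal peaks (88.4%) and gene body peaks (87.2%). Close to starts, CTCF matches were less frequent in the sites, with 5.36% (3.84 to 7.25) at 1 to 2 kb and 11.4 to 13.7% in the 4 bins beyond. They did not differ detectably between divergent (11.3%) and convergent (12.1%) intervals, with a difference of -0.726 points (-2.85 to 1.33).

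Sites with a CTCF match had fewer peaks around them. Another peak lay within 5 kb of 39.1% of them and of 53.8% of the sites without a match (difference -14.7 points, -18.0 to -11.4), lower on all 19 autosomes. Their nearest gene had a promoter peak in 64.4% of cases against 73.0% (difference -8.62 points, -11.9 to -5.47). Sites with a forkhead match had similar surroundings, with another peak within 5 kb in 42.0% against 53.7% (difference -11.7 points, -14.8 to -8.62) and a promoter peak at the nearest gene in 67.2% against 72.8% (difference -5.60 points, -8.56 to -2.74). Sites with an SP/KLF match went the other way, with another peak within 5 kb in 63.1% against 50.7% (difference 12.3 points, 8.94 to 15.7) and a promoter peak at the nearest gene in 76.1% against 71.5% (difference 4.59 points, 1.51 to 7.47). For RFX matches no difference in neighbours was detectable (-2.13 points, -10.7 to 6.41). The motif shares also varied with distance from the start. From 1 to 2 kb to 20 to 50 kb, CTCF went from 5.36 to 12.1% and forkhead from 10.4 to 16.0%. SP/KLF fell from 17.6 to 8.85%. A site close to a start has any promoter peak there as a neighbour by position. The comparisons were not split by distance, and the part of distance was not tested. The CTCF motif has a direction. Of 945 sites with exactly 1 match, 43.2% (39.99 to 46.4) had the consensus reading towards the nearest start, and 14 of 19 autosomes were below an even split. For downstream sites the share was 37.1% (32.1 to 42.4), and for upstream sites it was 46.8% (42.7 to 50.9), an interval that included an even split.

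Over all GC values, motifs linked to DN identity were less frequent here than far from genes. This was not particular to the sites. Gene body peaks had shares nearer to those of the sites, with forkhead at 15.2%, NBRE at 4.89% and homeobox at 8.31%. Forkhead matches were present in 14.1% of the sites, 21.4% of distal peaks and 12.3% of the windows, so that the difference from distal peaks was -7.32 points (-8.64 to -6.02), negative on 18 of 19 autosomes. The forkhead words are rich in A and T, and at equal GC the difference was smaller, at -3.81 points (-6.85 to -0.746) from 40 to 45%, -3.98 (-6.35 to -1.65) from 45 to 50% and -4.01 (-6.49 to -1.69) from 50 to 55%. Below 40% GC it was -2.05 with an interval of -7.55 to 3.68, and above 55% the intervals also included 0. NBRE matches were present in 4.25% of the sites and 7.57% of distal peaks (difference -3.32, -4.15 to -2.52), and in 2.59% of the windows. At equal GC the NBRE difference was -3.73 points (-5.66 to -1.78) from 40 to 45% and -2.48 (-3.92 to -1.13) from 45 to 50%, and the intervals of the other 4 ranges included 0, as from 50 to 55% (-0.518 points, -2.14 to 0.904). The homeobox core was found in 8.49% of the sites, 12.8% of distal peaks and 11.7% of the windows, and it was scarce at the summit, with 9.45% of matches within 50 bp of the centre. The same scarcity was seen in distal peaks (8.99%), gene body peaks (10.8%) and promoter peaks (10.2%). At equal GC the homeobox difference was seen from 45 to 50%, at -3.90 points (-5.83 to -2.04), whereas the intervals of the other 5 ranges included 0, as from 50 to 55% (-0.119 points, -2.01 to 1.59).

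Forkhead matches showed little position preference in the sites, with 22.7% (20.4 to 25.1) near the centre, against 28.7% (26.3 to 31.1) in distal peaks. They became more frequent with distance, from 10.4% (8.31 to 12.9) at 1 to 2 kb to 16.0% (14.6 to 17.4) at 20 to 50 kb.

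**Figure D5:**
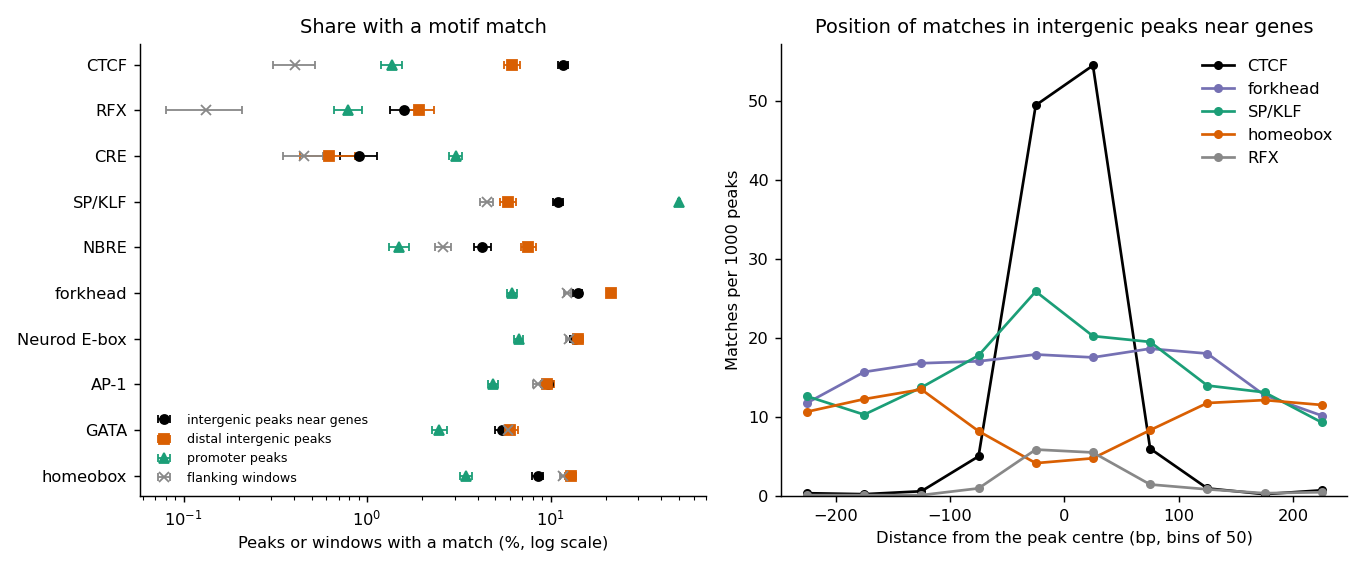
Left, share of peaks or windows with a match (x axis, %, log scale) for 10 motifs (y axis) in 4 classes, with 95% exact binomial intervals; right, matches per 1000 intergenic peaks near genes (y axis) in bins of 50 bp by distance from the peak centre (x axis, bp) for 5 motifs. CTCF was higher in the sites than in every other class (11.7%), and CTCF and RFX matches gathered at the centre where homeobox matches were fewest.

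Of the other motifs, the RFX palindrome was rare but placed like CTCF, in 1.60% of the sites and 0.133% of the windows, with 71.5% of matches within 50 bp of the centre. Its share in distal peaks, 1.91%, did not differ detectably over all GC values (-0.319 points, -0.783 to 0.122), but at equal GC it was higher than in the sites from 50 to 55% (difference -1.16 points, -2.37 to -0.201) and from 55 to 60% (-2.82 points, -5.72 to -0.911), with intervals that included 0 in the other 4 ranges. The SP/KLF box GGGCGGG was present in 10.97% of the sites, 5.87% of distal peaks and 50.1% of promoter peaks, and 4.47% of the windows. At equal GC its excess over distal peaks was not detectable from 45 to 50% (0.385 points, -0.842 to 1.55) or from 50 to 55% (-0.0104 points, -2.24 to 2.05), while it was 1.203 points (0.0233 to 2.45) from 40 to 45% and 6.53 points (1.09 to 11.4) from 55 to 60%. The AP-1 element TGACTCA was at 9.63% in the sites, 9.59% in distal peaks and 8.51% in the windows. CRE, the CREB element TGACGTCA, was present in 74 sites (0.908%) and 0.454% of the windows, with 46.1% of matches near the centre. The Neurod E-box CAGATGG was at 13.5% in the sites, 14.0% in distal peaks and 12.6% in the windows, and the GATA word AGATAAG at 5.44, 6.03 and 5.89%. Words for EBF (2.07%), SOX (1.41%), MEF2 (0.344%), EGR (0.307%), NRF1 (0.282%) and REST (0.0491%) were rare in the sites.

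Some sites lay on noncoding transcription units. Of the 8149, 5.29% had their centre in a lincRNA gene, 3.22% in an antisense gene and 2.14% in a gene of the processed transcript type. Meg3 held 11, Gm26745 held 10 and 5031425E22Rik held 9. Hairpins of 16 of the 919 autosomal miRNA genes of RefSeq were overlapped by 13 sites. Of these hairpins, Mir770, Mir337, Mir3544, Mir540 and Mir341 lie in the domain of Dlk1 and Rtl1. The site over Mir212, 3.72 kb upstream of Hic1 on chromosome 11, had 69.4% GC and held 2 CRE matches, and the hairpin of Mir132 began 196 bp beyond its end. It is printed for those matches, with 220 of its 500 bases, together with the only CRE site nearest to Ythdf1. Both were chosen after their values were seen.
Hic1, CRE, chr11:75173172-75173391: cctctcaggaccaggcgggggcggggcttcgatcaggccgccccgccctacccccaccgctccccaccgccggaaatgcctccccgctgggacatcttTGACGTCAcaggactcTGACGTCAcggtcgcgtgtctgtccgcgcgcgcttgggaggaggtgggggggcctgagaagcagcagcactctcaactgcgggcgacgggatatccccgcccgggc
Ythdf1, CRE, chr2:180893024-180893143: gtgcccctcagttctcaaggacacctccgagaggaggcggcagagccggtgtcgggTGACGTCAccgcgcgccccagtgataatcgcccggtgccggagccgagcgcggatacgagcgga
The mature miRNAs from the 3′ arms of Mir212 and Mir132, which were taken from RefSeq, share the same seed (bases 2 to 8, in capitals). Those from the 3′ arms of Mir337 and Mir341, over sites near Rtl1, have other seeds.
mmu-miR-212-3p: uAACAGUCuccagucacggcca
mmu-miR-132-3p: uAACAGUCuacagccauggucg
mmu-miR-337-3p: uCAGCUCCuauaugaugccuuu
mmu-miR-341-3p: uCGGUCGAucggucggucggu

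Enhancers tested in transgenic mouse embryos (the VISTA collection, as RefSeq lists it) offered a second annotation. Of 617 autosomal elements, 138 had a centre that satisfied the same rule, and 35 of them (25.4%, 18.3 to 33.5) contained at least 1 site. The share was 12 of 38 (31.6%) for elements active in midbrain, 10 of 29 (34.5%) for those active elsewhere in the central nervous system and 13 of 71 (18.3%) for those without such activity. Elements of the central nervous system exceeded the last group by 14.5 points, with an interval of -0.0325 to 28.5 that included 0. That last group also holds some elements active in peripheral ganglia. The elements differed in length, with medians of 3.05 kb for midbrain, 2.61 kb for elsewhere in the central nervous system and 2.27 kb for the rest. Per Mb of element there were 152, 209 and 93.9 sites. The element near Fos, active in embryonic heart, contained 1 of the 7 Fos sites, and an element near Btg2 active in midbrain contained 2 sites. A pair of elements near Kcne1 overlap each other and share 1 site.

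The label of the sites depended on the annotation. By RefSeq, 528 of the 8149 (6.48%) lay inside a protein-coding gene, 327 (4.01%) were within 1 kb of an mRNA start, and 688 (8.44%) met either condition. The edge of the peak reached into a coding gene body in 184 sites, and 138 of the sites kept were within 1 kb of a lincRNA or antisense start.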

How the data were processed

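Per the labels and the study's methods, the authors mapped reads of both VTA libraries to mm10 with Cell Ranger ATAC 1.2.0, removed doublets and low-quality nuclei in ArchR 0.9.1, and called reproducible peaks on pseudobulk replicates of the DN cluster. The deposited list gives chromosome, start and end only. It holds no count, score, depth or nucleus number, so no value carries a replicate error. The methods also describe a filter on the share of nuclei in which a peak is open, and the list does not show whether it was applied, so that a gene without a site may have peaks below such a limit. Starts were read as counted from 0 and printed as counted from 1. Each peak was assigned by its centre with GENCODE M21, and sequence was read from the RefSeq GRCm38.p6 genome, whose chromosomes are those of mm10. In all, 17 motifs were searched on both strands of the 500 bp, with palindromes counted once. SP/KLF and EGR words can overlap. Shares have exact binomial intervals, differences Newcombe intervals and ratios of density exact conditional intervals, all at 95%, computed in Python 3.11.15 with scipy 1.17.1. The functions were tested on simulated data. The members and gene lists were chosen with earlier results of these data known. Genes named were the 10 with the most sites, the 5 fullest intervals with ties, all genes of the 2 DN lists and leading genes of the others. Further genes were named after their values were seen. The ES cell sample was not analysed here. Some genes, motifs and sequences are not reported here.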

Additional observations from a re-analysis of the deposited data

How the results depend on the processing

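Of 54 alternative values for 9 results, 40 stayed within the 95% interval of the reported value (for the count of sites, within 1.5 times) and none changed direction. Limits of 2 to 20 kb gave 4527 sites, 14.9% of genes nearest to a site, a divergent to convergent ratio of 0.577, a promoter peak difference of 19.7 points and a CTCF difference of 4.29 points, where distal then means beyond 20 kb. Starts of every transcript of coding genes gave a near to far density ratio of 2.30 and 24.1% of genes. Keeping sites at noncoding starts gave 39.7% with another site within 5 kb and a GC excess over windows 2 kb away of 3.53 points (3.32 as reported). That excess was 4.30 points in the central 300 bp and 3.55 points against windows 5 kb away, and the forkhead difference in the central 300 bp was -5.75 points. Within 10 kb, 48.6% of sites had another site, and 37.2% had one within 5 kb when sites in or at RefSeq coding genes were left out, an alternative chosen after seeing the data. The density ratio of 1 to 5 kb over 20 to 50 kb could not be computed for limits of 2 to 20 kb. No paired analysis was possible because the deposited list carries no value for a single library, and for the same reason no replicate could be left out. A stricter peak threshold could not be tried on a list without scores, and absence from the list cannot be told apart from low depth.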
